A study of Mus musculus musculus x M. m. domesticus and Mus musculus musculus x Mus musculus castaneus and Mus musculus domesticus with 42 samples.

Results

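The proteasome is the protease that degrades most ubiquitin-tagged proteins of the cell, and its subunits were followed here across 3 tissues and 7 genotypes of house mice. The genes were taken by name: every probe set of the array whose single gene symbol is Psma, Psmb, Psmc, Psmd or Psme followed by a number, without Psmb8 and Psmb9. This gave 85 probe sets of 40 genes, out of 45037 probe sets, of which 34945 have a single symbol and stand for 18193 genes. A single probe set represents 19 of the 40 genes, and 21 genes have at least 2, with a maximum of 8 for Psmd11. Psme2 was measured only by a probe set that carries several symbols, so no value is given for it.

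The array data are from males of wild-derived inbred lines of the house mouse subspecies domesticus, musculus and castaneus and from F1 hybrids between them, with 2 males per genotype and 1 array for brain, liver and testis of each male, 42 arrays in all. The hybrids come from both directions of the musculus by domesticus and the musculus by castaneus cross and are written with the mother first. The males were 45 days old in domesticus and 47 in musculus and castaneus. Among the hybrids they were 53 days old in musculus x domesticus and musculus x castaneus, 50 in domesticus x musculus and 54 in castaneus x musculus. In the comparisons made here, other than musculus against castaneus, differences of age and genotype cannot be told apart. Inbred lines stand for the subspecies, so the p-values measure the spread between 2 males of a line.

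The proteasome core is a barrel of stacked rings. The outer rings are built from alpha subunits (Psma genes), which gate the entry, and the inner rings from beta subunits (Psmb genes), of which Psmb5, Psmb6 and Psmb7 carry the protease sites. A cap binds and unfolds substrates: its base holds the 6 ATPases Psmc1 to Psmc6 and further Psmd subunits. Its lid holds more Psmd subunits, among them Psmd14, which removes ubiquitin. Psmd5, Psmd9 and Psmd10 are counted here as base assembly chaperones. Alternative parts are known from particular tissues. Psma8 is a germ cell counterpart of the alpha subunit Psma7, Psmb10 replaces Psmb7 in the interferon-induced immunoproteasome, Psmb11 belongs to the thymus, and Psme1, Psme3 and Psme4 encode activators that open the core in place of the cap, of which Psme1 is induced by interferon and Psme4 is known from its role in sperm formation.

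The deposited values are MAS5 signals, an intensity on a linear scale. Array medians lay between 95 and 183, and replicate arrays of a group correlated with r of 0.958 to 0.981 over all probe sets. Tissue labels were matched by tissue markers: the synaptic gene Snap25 had a median signal of 17029.5 in brain against 5 in liver and 12 in testis, the liver gene Alb 22281 in liver against 135 in brain and 145 in testis, and the protamine gene Prm1 13222 in testis against 237.5 in brain and 1073.5 in liver. Both testis arrays of the musculus x castaneus F1 stood apart in their germ cell and somatic markers, with values given beside the results they touch. The liver of musculus x castaneus male 2 carried exocrine pancreas transcripts, with a summed signal of 70096 over 8 marker genes against 1706 to 11092 on the other liver arrays. No proteasome probe set had a value listed at 0. Differences are given on the log2(signal + 31) scale, first group minus second, with the standard error (SE) of the fit, and a probe set was called when limma's p, adjusted by the Benjamini-Hochberg method over all 27022 probe sets tested, was under 0.05. The filter on dim probe sets left 69 of the 85 proteasome probe sets in brain, 76 in liver and 69 in testis, 64 of them in every tissue and 7 in none. With 2 arrays per genotype and tissue, precision is limited by their number.

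The tissues differed in their proteasome transcripts. By 1 probe set per gene, brain was lower than liver in 32 and higher in 2 of the 39 genes tested. The 32 include Psma8, which was dim in both tissues. Within brain Psma8 was under the filter, and it entered this test by a mean over all 42 arrays that included its high testis signals (median 5524). Testis was lower than liver in 23 and higher in 10, and lower than brain in 20 and higher in 15. The background over all probe sets was 36.8% lower and 45.4% higher for brain minus liver, 45.8% lower and 39.2% higher for testis minus liver, and 50.4% lower and 34.5% higher for testis minus brain, so that the lower share stood above the background in both comparisons with liver and close to it between testis and brain. The median difference of the genes was -0.55 for brain minus liver, against 0.10 over all probe sets tested. It was -0.58 for testis minus liver, against -0.11, and -0.20 for testis minus brain, against -0.25. The 3 comparisons share their arrays. These are tissue homogenates, in which fewer cells of a type and less RNA per cell cannot be told apart. Quantile normalization moved the median over all probe sets to -0.11 for brain minus liver and to -0.06 for testis minus brain, and left 26 genes lower and 3 higher in brain than in liver.

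All 7 constitutive beta ring genes were lower in brain than in liver, and so were the 8 alpha ring genes. Among the latter, Psma8 was dim in both tissues and under the filter within brain, and its arrays overlapped. With quantile normalization 7 alpha and 4 beta ring genes were called lower; Psma5 and Psmb5 were not called, and Psmb4 and Psmb7 turned to 0.08 and 0.12, not called. Psma3 had signals of 3969 to 6044 in brain (median 4865) and 8694 to 11962 in liver (median 10912.5), with no overlap, a difference of -1.08 (SE 0.05, adjusted p = 3.11e-17). Psma4 fell by 1.13 (SE 0.04, adjusted p = 5.29e-20), and Psmb3, a structural beta subunit, fell by 1.28 (SE 0.09, adjusted p = 8.04e-14). The genes of the base and lid were less uniform. Of the 6 ATPases, 4 were lower (2 with quantile normalization) and 1, Psmc5, was higher in brain (0.41, SE 0.07, adjusted p = 3.5e-06). Of the 8 lid genes, 6 were lower and 1, the deubiquitinase Psmd14, was higher (0.29, SE 0.05, adjusted p = 6.28e-06). By 1 probe set per gene, Psmc5 and Psmd14 were the 2 genes called higher in brain. Other probe sets of Psmb1, Psme4, Psme3 and Psma1 were also called higher, by 0.81, 0.69, 0.22 and 0.21, and of these the last 2 turned to -0.17 and -0.14 with quantile normalization. The lid gene Psmd8 fell by 1.36 (SE 0.05, adjusted p = 7.04e-21) and the activator Psme1 by 1.37 (SE 0.06, adjusted p = 4.54e-18). The assembly chaperone Psmd9 fell by 1.37 by 1423386_at (SE 0.08, adjusted p = 2.24e-15). The dimmer Psmd9 probe sets 1423387_at and 1447670_at gave 0.068 and -0.182 and were not called. By 1 probe set per gene, Psme4 had the largest fall in this comparison, with 807 to 1199 in brain (median 1054) and 3114 to 4612 in liver (median 3819). It fell by 1.91 (SE 0.05, adjusted p = 1.1e-23).

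The testis values parted within the alpha ring. Psma8 had signals of 26 to 82 in brain (median 52), 19 to 200 in liver (median 91) and 3742 to 7151 in testis (median 5524). Every testis array lay above every array of the other tissues, and the difference was 6.0 (SE 0.13, adjusted p = 4.79e-26) from brain and 5.37 (SE 0.13, adjusted p = 5.76e-25) from liver. Its counterpart Psma7 went the other way: 1423568_at gave 2108 to 2542 in brain (median 2258.5), 3233 to 4412 in liver (median 3882.5) and 711 to 2069 in testis (median 921.5). The difference was -1.19 (SE 0.05, adjusted p = 8.15e-19) from brain and -1.93 (SE 0.05, adjusted p = 4.33e-24) from liver, and the other Psma7 probe set, 1423567_a_at, gave -1.23 (SE 0.06) and -1.71 (SE 0.06). The highest testis values of Psma7 were those of the musculus x castaneus F1, and without both males of that genotype the difference from brain was -1.35. Psma6 stood above all brain and liver arrays, with 8754 to 16560 (median 13612) against 2883 to 4336 in brain and 4078 to 6873 in liver, a rise of 1.86 (SE 0.06, adjusted p = 3.36e-21) and 1.13 (SE 0.06, adjusted p = 7.82e-16). The others of the alpha ring, Psma1 to Psma5, were lower in testis than in liver, by 0.87 in Psma4 to 1.53 in Psma1.

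**Figure D1:**
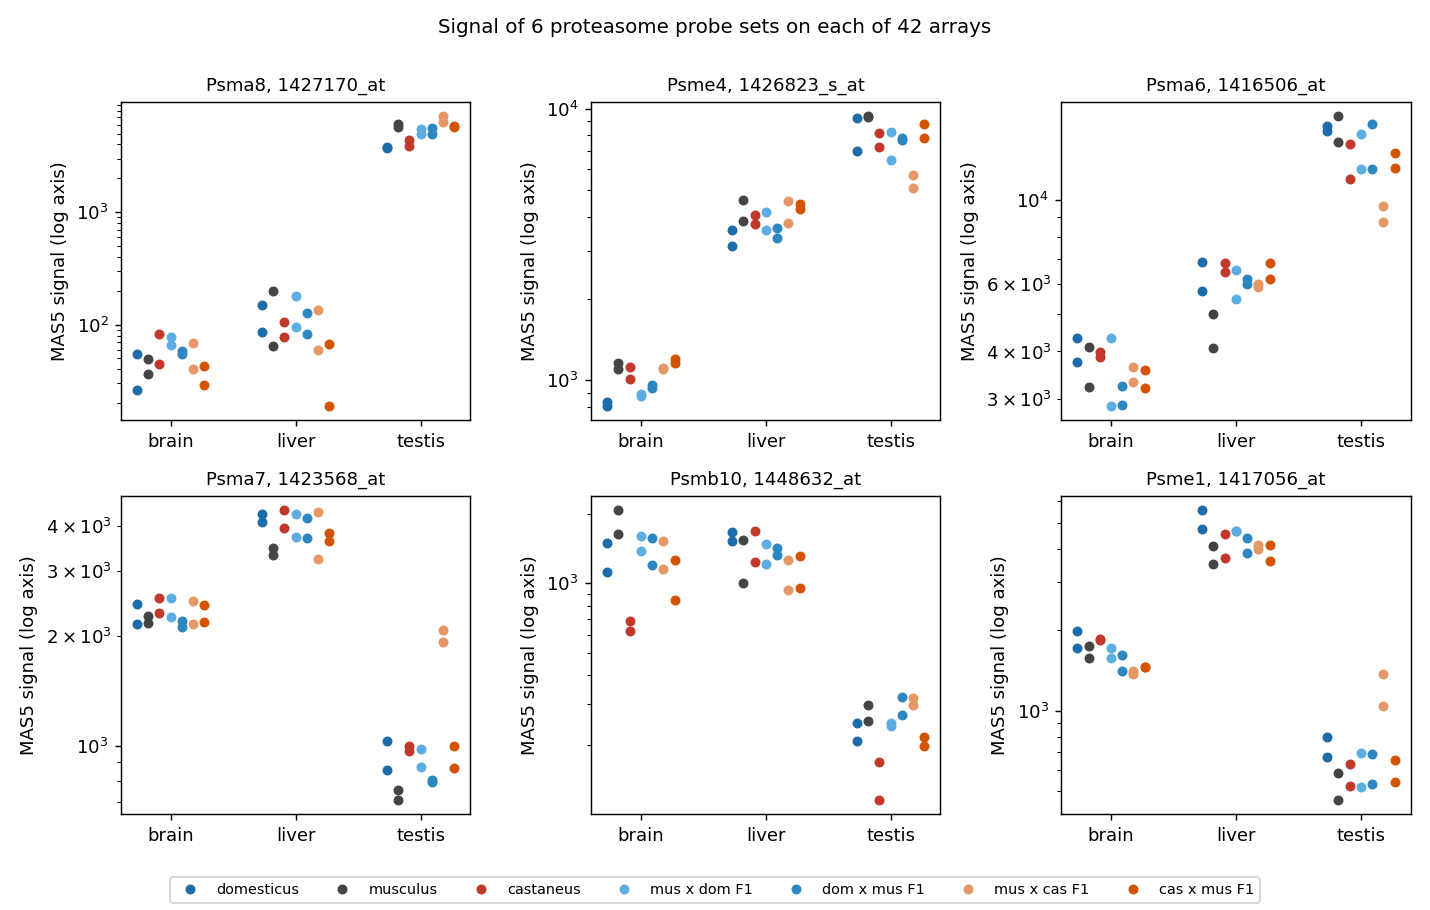
MAS5 signal (log axis) on each of the 42 arrays for 6 proteasome probe sets, grouped by tissue and coloured by genotype, with 2 males per genotype (F1 written with the mother first). Psma8, Psme4 and Psma6 are highest in testis, Psma7, Psmb10 and Psme1 lowest, the 2 castaneus arrays lie low for Psmb10 in brain, and the testis arrays of the musculus x castaneus F1 lie apart from the other genotypes for Psma7, Psme1, Psma6 and Psme4.

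In the beta rings, 6 of the 7 constitutive genes were lower in testis than in liver, and Psmb6 was not called (0.03, SE 0.07, adjusted p = 0.689). Psmb3 had the largest fall, from 6034 to 12257 in liver (median 7363.5) to 1260 to 3279 in testis (median 1698.5), a difference of -2.11 (SE 0.09, adjusted p = 3.07e-19). Against brain, Psmb6 was the only constitutive beta gene called higher in testis (0.83, SE 0.07, adjusted p = 2.11e-12), and 5 were lower. The interferon-inducible Psmb10 had 116 to 324 in testis (median 248) against 620 to 2074 in brain (median 1323) and 937 to 1677 in liver (median 1318.5). Testis lay below every other array, with a difference of -2.24 (SE 0.09, adjusted p = 5.97e-20) from brain and -2.32 (SE 0.09, adjusted p = 2.57e-20) from liver, while brain and liver did not differ by the test (-0.07, SE 0.09, adjusted p = 0.431). The thymus subunit Psmb11 was dim, with medians of 203 in liver, 46.5 in testis and 30 in brain, and was tested within liver only.

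In the base, Psmc2, Psmc3 and the scaffold Psmd2 were higher in testis than in both other tissues. Psmc3 had 8416 to 13367 in testis (median 11053.5), 2757 to 3991 in brain and 2359 to 4128 in liver, with no overlap, a rise of 1.70 (SE 0.06, adjusted p = 1.06e-20) from brain and 1.72 (SE 0.06, adjusted p = 8.26e-21) from liver. Psmc2 rose by 1.09 (SE 0.06) and 0.76 (SE 0.06), and Psmd2 by 1.03 (SE 0.06) and 0.80 (SE 0.06). The ATPases Psmc1, Psmc4 and Psmc6 were lower in testis than in both other tissues. For Psmc6 the size depended on the probe set: 1417771_a_at fell by 0.37 (SE 0.05) from brain, whereas 1417770_s_at went from 2090 to 3284 in brain (median 2425) to 299 to 857 in testis (median 418), a fall of 2.41 (SE 0.06, adjusted p = 1.19e-24), and 1417769_at fell by 2.26 (SE 0.10). The probe sets thus differ by over 1 log2 unit for the same gene.

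In the lid, Psmd8 had 6230 to 9561 in testis (median 8432) against 2030 to 2887 in brain (median 2373.5), a rise of 1.78 (SE 0.05, adjusted p = 6.73e-24), and it was 0.42 (SE 0.05) above liver. Psmd14 was lower in testis, by 0.62 (SE 0.05) from brain and by 0.33 (SE 0.05) from liver. Probe sets of Psmd11 disagreed: 1437080_s_at was 0.44 (SE 0.06) above brain and 1429370_a_at 0.50 (SE 0.07) above, while 1440253_at was 1.32 (SE 0.07) below (difference of -1.32). Among the base assembly chaperones, Psmd9 by 1423386_at rose by 1.36 (SE 0.08, adjusted p = 1.96e-15) from brain to testis, while its dimmer probe sets 1423387_at and 1447670_at were called lower (-0.24 and -0.67), the former with no difference left under quantile normalization (0.001). Psmd5 fell by 0.84 (SE 0.07, adjusted p = 2.15e-12) from brain and by 1.33 (SE 0.07, adjusted p = 4.05e-17) from liver.

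The activators parted. Psme4 had 5087 to 9380 in testis (median 7783.5), above every brain and liver array, by 2.87 (SE 0.05, adjusted p = 5.43e-28) and 0.96 (SE 0.05, adjusted p = 2.11e-16). Its probe sets 1426824_at and 1452211_at rose by 3.02 (SE 0.14) and 3.10 (SE 0.07) from brain, while the dim 1446464_at fell by 0.77 (SE 0.12). Psme1 had 466 to 1367 in testis (median 645.5), 1367 to 1979 in brain (median 1594.5) and 3505 to 5567 in liver (median 4122), a fall of 1.24 (SE 0.06, adjusted p = 4.7e-17) from brain and 2.61 (SE 0.06, adjusted p = 4.17e-25) from liver. Psme3, the nuclear activator, depended on its probe set: 1418079_at rose from 418 to 757 in brain (median 511) to 1116 to 3447 in testis (median 2690.5), by 2.16 (SE 0.07, adjusted p = 2.84e-21), and 1418078_at fell by 0.34 (SE 0.12, adjusted p = 0.0122).

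Genes that work with the proteasome were called in both directions. Of 17 genes for assembly and regulation on the array, 10 were higher and 6 lower in testis than in brain, where the background was 34.5% and 50.4%. Against liver 7 were higher and 8 lower, close to the background of 39.2% and 45.8%. Psmf1, an inhibitor of the core, rose by 4.01 (SE 0.13, adjusted p = 9.5e-22) from brain and by 2.44 (SE 0.13) from liver, and Ngly1, which removes sugar chains from substrates, rose by 3.04 (SE 0.04) and 1.77 (SE 0.04). The core assembly chaperone Pomp fell by 1.02 (SE 0.06) from liver. Of 10 genes for ubiquitin and substrate delivery, 6 were higher and 3 lower in testis than in brain, led by Ddi1, which rose by 6.79 (SE 0.13, adjusted p = 2.55e-27). The excluded immunoproteasome subunits Psmb8 and Psmb9 were highest in liver, with brain minus liver differences of -3.39 (SE 0.14) and -3.16 (SE 0.14), and all 15 tested genes of interferon response and MHC class I were lower in brain than in liver and in testis than in liver.

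Between the parental subspecies most proteasome transcripts were not called. In brain, domesticus was higher than musculus in 6 of the 69 proteasome probe sets tested and lower in 0 (background 3.26% higher, 2.48% lower), and 9 had an unadjusted p under 0.05. Castaneus was higher than musculus in 5 and lower in 2 (3.12% and 2.95%). In liver, 76 probe sets were tested: domesticus was higher in 2 and lower in 2 (3.16% and 3.01%), and castaneus higher in 2 and lower in 1 (3.14% and 3.41%). In testis, with 69 tested, domesticus was higher in 7 and lower in 2 (6.95% and 5.86%), and castaneus higher in 6 and lower in 4 (7.48% and 6%). Both comparisons use the same musculus arrays. The medians of the proteasome probe sets lay between -0.06 and 0.01 in these 6 comparisons. The counts rest on few males. Without musculus male 1 or castaneus male 2 the castaneus count in brain was 3. The domesticus count in liver was 1 or 2 without any of its 4 males, the castaneus count in liver was 1 without castaneus male 1, and the castaneus count in testis was 4 to 6 without any of its 4 males.

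**Figure D2:**
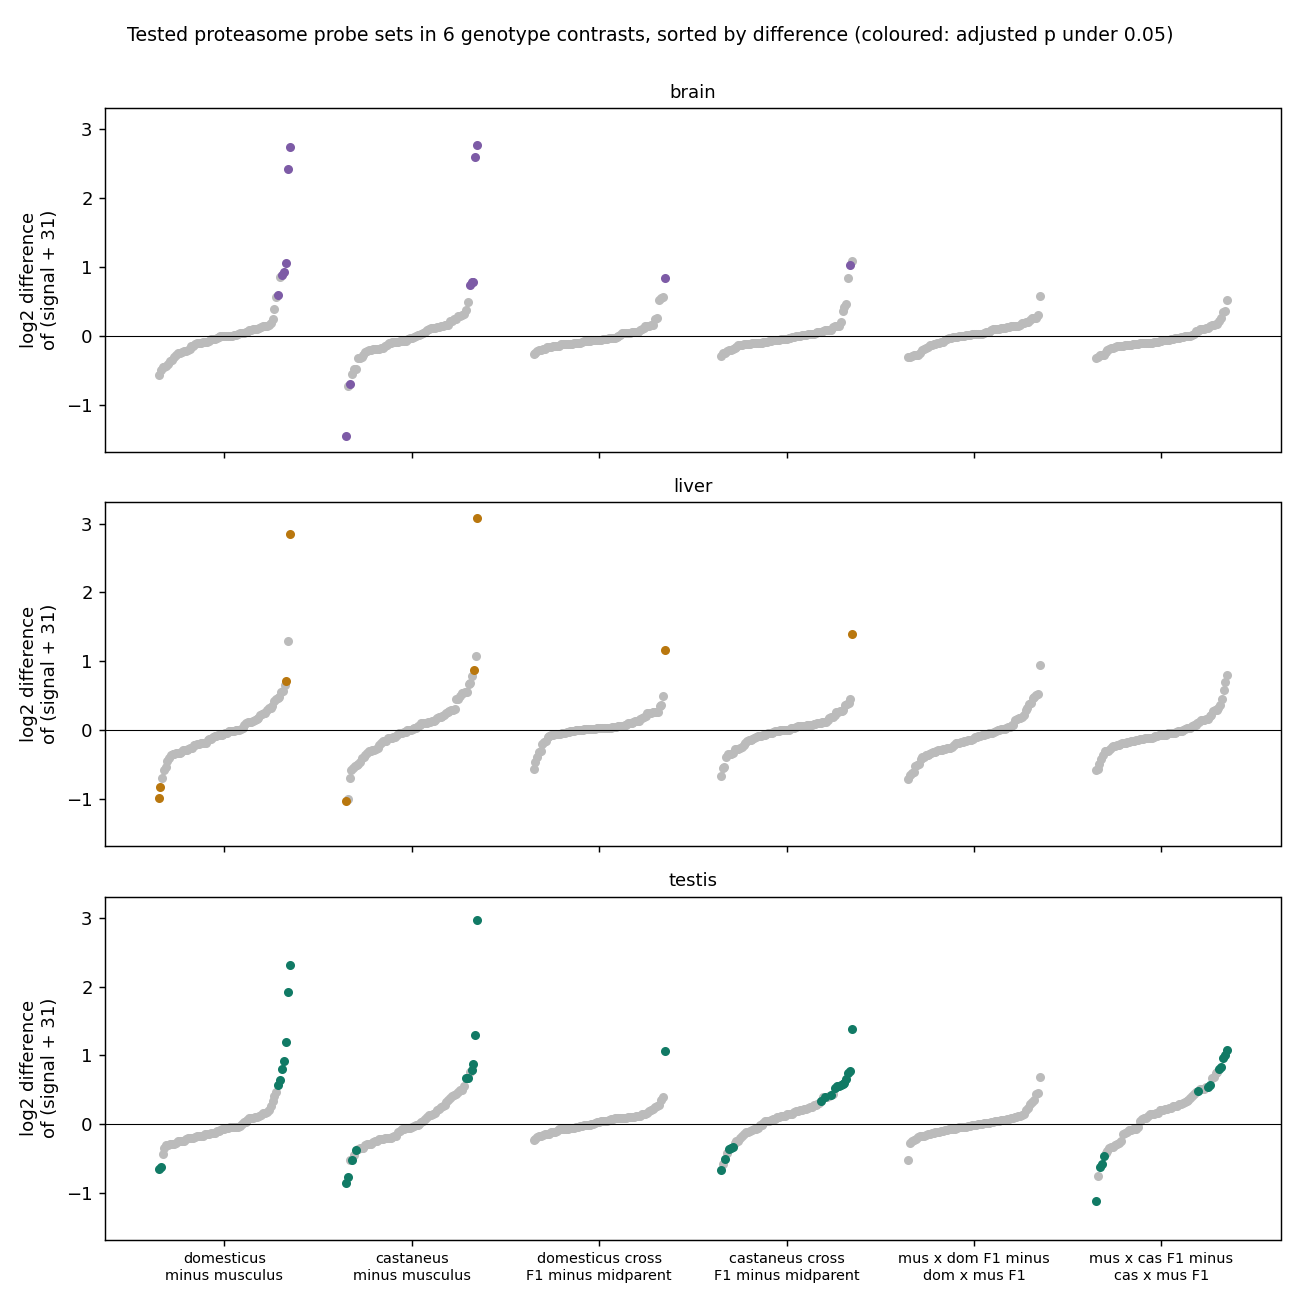
Log2 difference of (signal + 31) for every tested proteasome probe set in 6 genotype contrasts and 3 tissues, sorted within each contrast. Coloured points have an adjusted p under 0.05 and grey points do not. Calls are few in brain and liver, a single probe set stands near 3 in both parental contrasts of liver, and the castaneus cross F1 of testis show 18 coloured points against their midparent.

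The lid subunit Psmd6 gave the largest difference that was called in every tissue, and in a single probe set. In musculus, 1423696_a_at gave 803 and 839 in brain, 799 and 1227 in liver and 726 and 783 in testis. In domesticus it gave 4444 and 4614 in brain, 7045 and 7610 in liver and 3707 and 4028 in testis, and in castaneus 4436 and 5956, 8245 and 8984, and 6082 and 6066. Every musculus array lay far below every other array of its tissue. Domesticus exceeded musculus by 2.42 (SE 0.15, adjusted p = 2.14e-06) in brain, 2.85 (SE 0.20, adjusted p = 2.74e-06) in liver and 2.31 (SE 0.15, adjusted p = 2.79e-07) in testis, and castaneus by 2.60 (SE 0.15, adjusted p = 2.36e-06), 3.08 (SE 0.20, adjusted p = 1.6e-06) and 2.96 (SE 0.15, adjusted p = 3.65e-08). The other Psmd6 probe set, 1423697_at, showed no such gap: musculus gave 3322 and 3082 in brain, where domesticus gave 3092 and 2909. In testis it differed the other way, with 4284 and 4074 in musculus against 2657 and 2745 in domesticus, a difference of -0.62 (SE 0.13, adjusted p = 0.00442). A base difference between a subspecies and the array's probes can lower a signal. Whether 1423696_a_at is read differently in musculus for that reason was not tested.

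Psmd7, the partner of Psmd14 in the lid, showed the same split between its probe sets. The dim 1432820_at gave 7 and 11 in musculus brain, 229 and 245 in domesticus and 208 and 282 in castaneus, a difference of 2.75 (SE 0.27, adjusted p = 9.78e-05) and 2.78 (SE 0.27, adjusted p = 9.66e-05). The musculus signals lie below the offset, which sets the size of these values: with an offset of 100 they were 1.63 and 1.65, still called. In testis musculus gave 79 and 45, domesticus 278 and 359 and castaneus 202 and 186, with differences of 1.92 (SE 0.32, adjusted p = 0.00109) and 1.30 (SE 0.32, adjusted p = 0.0151), of which the castaneus call was lost without musculus male 2 or either castaneus male (0.87 to 1.57 over all alternatives). The bright 1451056_at had group means of 1278 (SD 221, n = 2) in musculus brain, 1272 (SD 98.3, n = 2) in domesticus and 1299 (SD 358, n = 2) in castaneus, and was called in no parental contrast.

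**Figure D3:**
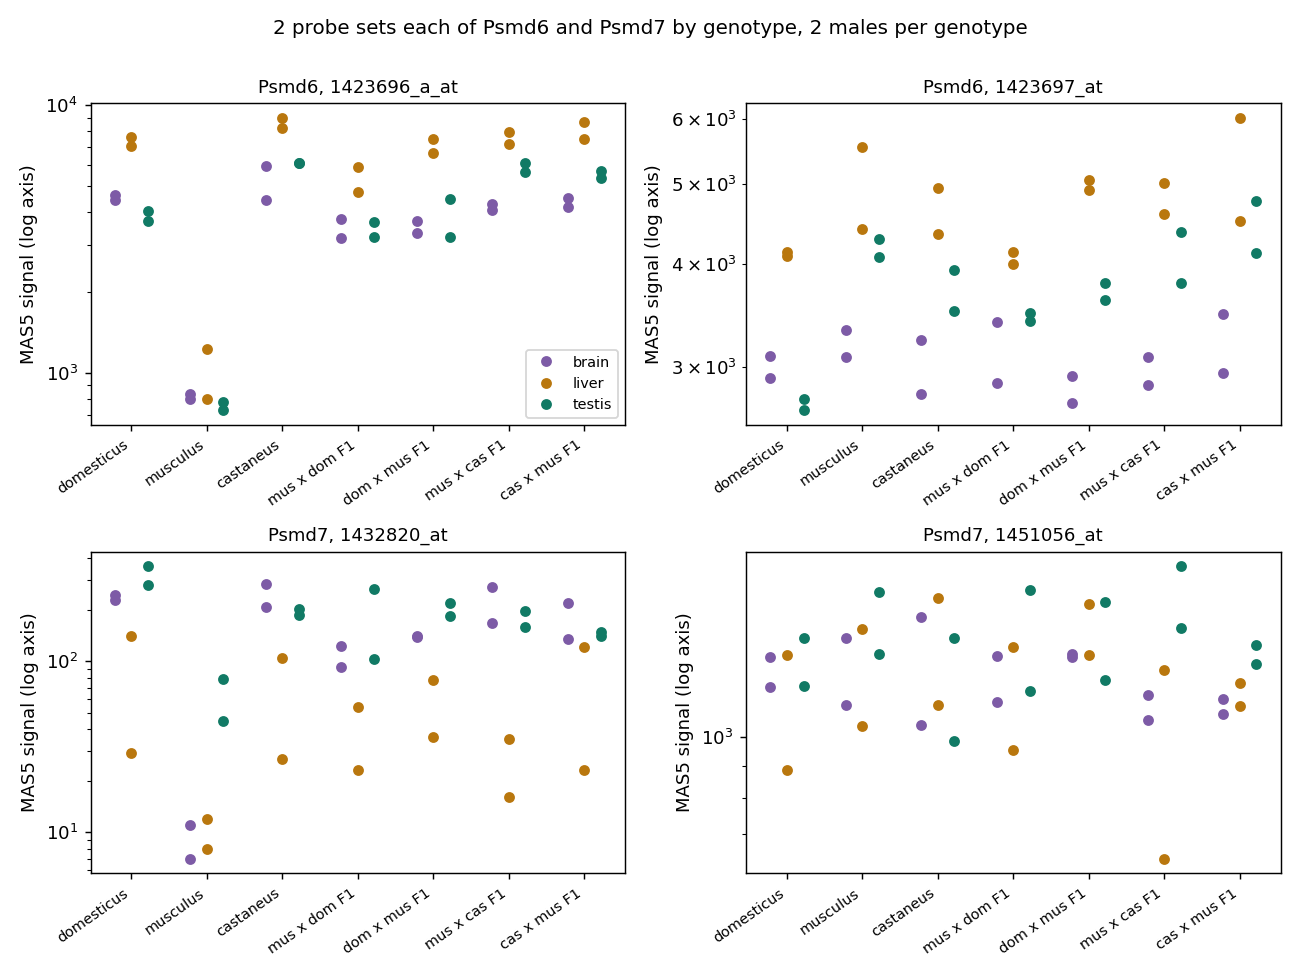
MAS5 signal (log axis) of 2 probe sets each of Psmd6 and Psmd7 by genotype, with brain, liver and testis in different colours and 2 males per genotype and tissue. In the left panels the musculus arrays lie below the others of their tissue, and in the right panels they lie among them.

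Probe sets of several core and base subunits were higher in domesticus than in musculus. For Psma7 and Psmb3 the second probe set was not called. Whether base differences from the array's probes lower the musculus signal of these probe sets was not tested. The alpha subunit Psma7, by 1423567_a_at, gave 3194 and 3161 in domesticus brain against 1734 and 1689 in musculus (0.88, SE 0.12, adjusted p = 0.00109), and 1124 and 1192 against 514 and 467 in testis (1.19, SE 0.15, adjusted p = 0.000117). Castaneus testis gave 944 and 908 (0.88, SE 0.15, adjusted p = 0.00139). The arrays did not overlap, but 1423568_at gave 0.05 in brain and 0.34 and 0.41 in testis and was not called. The protease subunit Psmb6, with a single probe set, gave 3200 and 3279 in domesticus brain, 2429 and 2744 in castaneus and 1516 and 1547 in musculus, a rise of 1.07 (SE 0.15, adjusted p = 0.00129) and 0.74 (SE 0.15, adjusted p = 0.0128). In testis domesticus gave 4681 and 5165 against 3232 and 3065 (0.64, SE 0.14, adjusted p = 0.00739). The castaneus brain call was lost without either musculus male or castaneus male 2 (0.66 to 0.83 over its alternatives, adjusted p up to 0.113), and the testis call without domesticus male 2 or musculus male 2 (0.57 to 0.71, adjusted p up to 0.0791).

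The ATPase Psmc5, also with a single probe set, was higher than musculus in 5 of the 6 parental comparisons. Brain gave 4244 and 4512 in domesticus, 3821 and 4136 in castaneus and 1889 and 2762 in musculus (0.93, SE 0.19, adjusted p = 0.0115, and 0.79, SE 0.19, adjusted p = 0.0276). Testis gave 2958 and 3568, 3524 and 3460, and 1993 and 2377 (0.57, SE 0.16, adjusted p = 0.0317, and 0.67, SE 0.16, adjusted p = 0.0125), and liver 2708 and 3231 in domesticus against 1992 and 1615 (0.71, SE 0.20, adjusted p = 0.0499). None of these arrays overlapped with musculus. The calls held under 5 of 8 alternatives for each brain comparison, 2 of 8 for domesticus liver and 6 of 9 for castaneus testis. Psmb3 by 1417052_at was called higher in 5 comparisons, by 0.59 to 0.88, while 1460198_a_at gave 0.03 to 0.50 in the same comparisons and was not called; the castaneus testis call of 1417052_at held under 1 of 9 alternatives. The alpha subunit Psma3 was called higher in testis: 7593 and 6634 in domesticus against 3743 and 3761 in musculus (0.91, SE 0.14, adjusted p = 0.000472), with 0.24 in brain and 0.25 in liver. This difference depended on tissue (adjusted p = 0.0411 by limma's F test).

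Fewer members were higher in musculus. Psma8 in testis gave 5700 and 6092 in musculus, 3742 and 3763 in domesticus and 3895 and 4376 in castaneus, without overlap, so that the others lay lower by -0.65 (SE 0.12, adjusted p = 0.00279) and -0.51 (SE 0.12, adjusted p = 0.0128) on the log2 scale. The castaneus call held under 7 of 9 alternatives. In liver, Psmd11 fell in domesticus by 1429370_a_at, with 1336 and 1262 against 2425 and 2768 in musculus (-0.98, SE 0.21, adjusted p = 0.0148), and by 1440253_at, with 2704 and 2828 against 5133 and 4717 (-0.82, SE 0.22, adjusted p = 0.0466). Both calls were lost without any 1 of the 4 males, and the second also with no filter or a replicate block (-0.89 to -0.76, adjusted p up to 0.234). Neither probe set had a like difference in brain (-0.24 and 0.05) or testis (-0.04 and -0.03), and both depended on tissue (adjusted p = 0.0279 and 0.0376 by limma's F test). Psmd9 by 1423386_at fell in castaneus liver, to 537 and 590 from 1055 and 1327 in musculus (-1.03, SE 0.22, adjusted p = 0.0124), a call that held under 6 of 8 alternatives. Psma6 by 1437144_x_at was lower in castaneus brain (-0.69, SE 0.17, adjusted p = 0.0384) and testis (-0.76, SE 0.16, adjusted p = 0.00525), and 1416506_at was called in neither. The brain call was lost with no filter and without any 1 of the 4 males (-0.86 to -0.52, adjusted p up to 0.245), and the testis call without castaneus male 1 (adjusted p = 0.0626). In castaneus testis the lid subunit Psmd12 was lower by -0.37 (SE 0.11, adjusted p = 0.0496), a call that held under 1 of 9 alternatives. There Psmc6 by 1417770_s_at was higher than in musculus, with 543 and 543 against 354 and 307 (0.67, SE 0.16, adjusted p = 0.0127), which held under 6 of 9. The other 2 tested Psmc6 probe sets gave -0.215 and 0.762 and were not called.

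The inducible Psmb10 was low in castaneus, depending on tissue. In brain castaneus gave 690 and 620, musculus 1629 and 2074 and domesticus 1125 and 1490, and the 2 castaneus arrays were the lowest of the 14. The difference from musculus was -1.45 (SE 0.23, adjusted p = 0.00284). In testis castaneus gave 168 and 116 against 299 and 255 (-0.84, SE 0.20, adjusted p = 0.0126), a call that was lost without musculus male 1 or castaneus male 2 (-1.06 to -0.63 over its alternatives, adjusted p up to 0.136). The brain call held under all 8. In liver it gave 1236 and 1677 against 1536 and 1000, a difference of 0.21 that was not called, and the dependence on tissue was called (adjusted p = 0.0035 by limma's F test). The hybrids of both directions lay between the parents in brain, with signals of 1154 and 1521 where musculus was the mother and of 1266 and 849 where castaneus was. The other inducible subunits were higher in castaneus liver, Psmb8 by 1.98 (SE 0.23, adjusted p = 0.000192) and Psmb9 by 2.44 (SE 0.29, adjusted p = 0.000216), with a summed signal of 5416 and 6538 against 1090 and 1458 in musculus. Psmb8 was higher in domesticus liver too (1.41, SE 0.23, adjusted p = 0.00239). Of the interferon and MHC class I genes, 9 of 17 tested were higher and 0 lower in castaneus liver (background 3.14% and 3.41%). In castaneus brain 4 of 13 were higher and 0 lower (3.12% and 2.95%), among them Ifit3 (1.35, SE 0.24) and Gbp3 (1.19, SE 0.25). In domesticus liver Tap1 (0.76) and H2-D1 (2.08) were called higher and H2-K1 lower (-0.87). In testis Tapbp was called higher in castaneus (0.506) and domesticus (0.591), and Nlrc5 lower (-1.888 and -1.525). H2-K1 was also called lower in domesticus testis (-3.028) and brain (-1.544).

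Some genes that work with the proteasome were called between parents. Of 17 genes for assembly and regulation, 1 was lower in liver for each subspecies (background 3.01% for domesticus and 3.41% for castaneus). These were Zfand5 in domesticus (-0.90, SE 0.22) and the deubiquitinase Uchl5 in castaneus (-0.85, SE 0.15). In testis Uchl5 was higher in both, by 0.72 (SE 0.12, adjusted p = 0.00113) in domesticus and 0.61 (SE 0.12, adjusted p = 0.00365) in castaneus, and the core assembly chaperone Psmg1 was higher in domesticus (0.48, SE 0.14) and lower in castaneus (-0.54, SE 0.14). Sem1 was lower in castaneus testis (-0.591, SE 0.165, adjusted p = 0.0294). The testis background was 6.95% higher and 5.86% lower for domesticus, and 7.48% and 6% for castaneus. Of the genes for substrate delivery, Rad23b was lower in domesticus brain (-1.0, SE 0.15, adjusted p = 0.00186, background 2.48%). Ubqln4 was higher in castaneus brain (0.80, SE 0.19, background 3.12%) and testis (0.78, SE 0.21).

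The series asked whether hybrids express a transcript at the mean of their parents. On the log2 scale, the mean of both F1 of the domesticus cross differed from the midparent for 1 proteasome probe set in each tissue (background 0.137% in brain, 0.178% for liver, 0.414% for testis), and the castaneus cross did so for 1 in brain (0.137%) and 1 in liver (0.241%). In each of these 5 cases it was Psmd6 by 1423696_a_at, above the midparent. Unadjusted p-values under 0.05 were found for 2 to 5 proteasome probe sets in each of these 5 comparisons. The domesticus cross F1 gave 3207, 3773, 3714 and 3326 in brain, closer to domesticus than to musculus, and exceeded the midparent by 0.84 (SE 0.10, adjusted p = 0.00705). In liver the excess was 1.16 (SE 0.14, adjusted p = 0.00289) and in testis 1.06 (SE 0.11, adjusted p = 0.000159). The castaneus cross F1 exceeded it by 1.03 (SE 0.10, adjusted p = 0.00464) in brain, 1.40 (SE 0.14, adjusted p = 0.000845) in liver and 1.39 (SE 0.11, adjusted p = 2.29e-05) in testis. The other Psmd6 probe set was not called off the midparent in either cross or any tissue. Its differences were -0.062 in brain, -0.002 in liver and 0.089 in testis for the domesticus cross. For the castaneus cross they were -0.007, 0.063 and 0.108. The excess was thus called by 1423696_a_at only. The midparent on a log2 scale is lower than the mean of the signals where parents differ this much. Against the mean of the signals themselves, the excess by 1423696_a_at in the domesticus cross was 0.39 in brain, 0.56 for liver and 0.65 in testis. In the castaneus cross it was 0.49 in brain, 0.70 in liver and 0.73 in testis.

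Testis of the castaneus cross differed from the other 5 comparisons. There 13 proteasome probe sets were above the midparent and 5 below (background 9.56% and 7.88%), and 30 of the 69 had an unadjusted p under 0.05. The calls came from the musculus x castaneus F1: taken alone it gave 33 called probe sets (background 35.3%), while castaneus x musculus males taken alone gave 1 (background 0.3%). Without musculus male 2 the count of both F1 was 9, and without musculus x castaneus male 2 it was 11. Within the set, 5 alpha ring genes were called above by their representative probe set and 1 below, and no constitutive beta ring gene or ATPase was called by it. Other probe sets were called above for Psmb4 (1438984_x_at, 0.59) and Psmc6 (1417769_at, 0.74, and 1417770_s_at, 0.53). Psma5 (0.56), Psma2 (0.43) and this Psmb4 probe set did not overlap with the parents. Probe sets disagreed for Psmd13 (1445729_at -0.504, others 0.08 to 0.19), Psme3 (1418079_at -0.665, the other 0.22) and Psmd11 (1440253_at 0.57, others -0.42 to 0.21). Only the first named of each was called.

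The reciprocal F1 differ in which subspecies was the mother, and as males in their sex chromosomes. In the domesticus cross, 0 proteasome probe sets were called in brain (background 0.0222%), liver (0.0888%) or testis (0.204%) by limma, with 1, 7 and 1 at an unadjusted p under 0.05. In the castaneus cross, 0 were called in brain (0.0111%) and liver (0.037%), with 1 and 2 at an unadjusted p under 0.05. In castaneus cross testis, musculus x castaneus exceeded castaneus x musculus in 8 of 69 proteasome probe sets and was lower in 4 (background 17.9% and 10.6%, both above the share of the proteasome), with 28 at an unadjusted p under 0.05. The count was 4 without musculus x castaneus male 2 and 5 without castaneus x musculus male 1. Quantile normalization gave 16 higher and 4 lower and moved the median over all probe sets from 0.24 to 0.03.

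Members with a probe set called higher were Psma7, Psme1, Psmc6, Psma1, Psmd5, Psmd11 and Psmd14. Other tested probe sets gave -0.385 to 0.445 for Psmd11, 0.093 and 0.755 for Psmc6 and 0.511 for Psma1. None of these was called. Psma7 by 1423568_at gave 1920 and 2069 in musculus x castaneus males, 867 and 995 in castaneus x musculus males and 711 to 1028 in the other 5 genotypes. Both arrays of the former stood above the 12 other testis arrays, and the difference between the reciprocal F1 was 1.08 (SE 0.14, adjusted p = 0.000222). The second Psma7 probe set, 1423567_a_at, gave 1641 and 1703 against 832 and 809 (1.00, SE 0.15, adjusted p = 0.000523). Psme1 gave 1044 and 1367 against 657 and 541 (0.97, SE 0.21, adjusted p = 0.00453), and Psmc6 by 1417770_s_at gave 834 and 857 against 448 and 477 (0.83, SE 0.16, adjusted p = 0.00245). Smaller rises were called for Psma1 by 1458292_at (0.80, SE 0.22, adjusted p = 0.0172), Psmd5 (0.57, SE 0.19, adjusted p = 0.0376), Psmd11 by 1440253_at (0.55, SE 0.16, adjusted p = 0.0202) and Psmd14 (0.48, SE 0.16, adjusted p = 0.0401). The calls of Psma7 and Psmc6 held under all 8 alternatives and that of Psme1 under 7, being lost without musculus x castaneus male 2 (adjusted p = 0.0553). Those of Psma1 and Psmd11 held under 5, that of Psmd14 under 3 and that of Psmd5 under 2. The calls of Psmd14 and Psmd5 were lost without any 1 of the 4 males, those of Psma1 and Psmd11 without musculus x castaneus male 2 or castaneus x musculus male 1, and that of Psmd11 also without castaneus x musculus male 2.

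The members called lower were activators and Psma6. Psme3 by 1418079_at gave 1147 and 1116 in musculus x castaneus males and 2745 and 2242 in castaneus x musculus males, against 2408 to 3447 in the other 5 genotypes, a difference of -1.11 (SE 0.14, adjusted p = 0.000207). Its second probe set, 1418078_at, gave 0.34 and was not called. Psme4 gave 5683 and 5087 against 8777 and 7795 by 1426823_s_at (-0.62, SE 0.15, adjusted p = 0.0104) and 4806 and 3957 against 6390 and 6679 by 1452211_at (-0.58, SE 0.15, adjusted p = 0.0122). The Psme4 calls held under 6 and 5 of 8 alternatives and were lost without musculus x castaneus male 2 or castaneus x musculus male 1. Psma6 by 1416506_at gave 9614 and 8754 against 13231 and 12124 (-0.46, SE 0.16, adjusted p = 0.0462). That call held under 2 of 8 alternatives and was lost without any 1 of the 4 males, and the other 3 Psma6 probe sets gave -0.25 to 0.68 and were not called. Psma8, the germ cell alpha subunit, gave 6304 and 7151 against 5818 and 5741 and was not called (0.21, SE 0.12, adjusted p = 0.202).

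**Figure D4:**
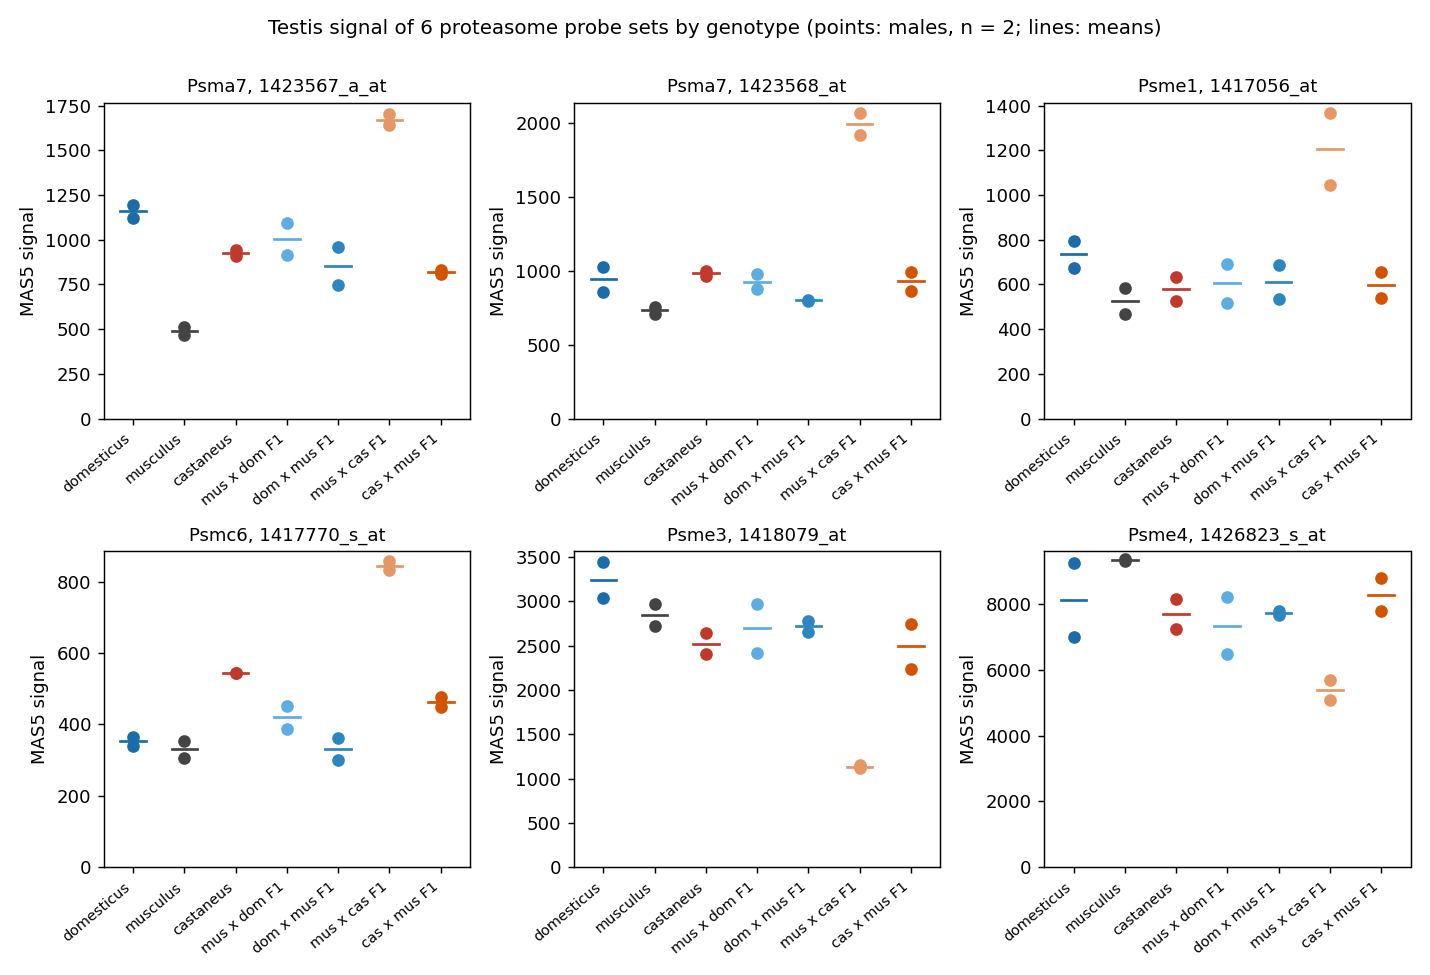
Testis MAS5 signal of 6 proteasome probe sets in the 7 genotypes, with points for the 2 males, lines for their means and axes that start at 0. The musculus x castaneus F1 lies above every other genotype for Psma7, Psme1 and Psmc6 and below every other for Psme3 and Psme4.

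The differences between tissues of the same members, which share these testis arrays, stand as follows. Psma7 by 1423568_at, Psme1, Psmc6 by 1417770_s_at and Psmd5 were lower in testis than in brain, by -1.19, -1.24, -2.41 and -0.84, and Psme3 by 1418079_at, Psme4 and Psma6 were higher, by 2.16, 2.87 and 1.86. Markers of testis cells moved on the same arrays. Over all probe sets, 17.9% were called higher and 10.6% lower in musculus x castaneus than in castaneus x musculus testis. Of 10 Sertoli cell markers, 7 were higher and 0 lower in musculus x castaneus than in castaneus x musculus, with summed signals of 31025 and 32424 against 20702 to 20772 and 19447 to 24308 in the other genotypes. Of 4 Leydig cell markers tested, 2 were higher, with sums of 14670 and 15672 against 4859 to 11677 on the other 12 arrays, and of 7 spermatogonial markers 2 were higher, with sums of 5541 and 5651 against 2816 to 3930. All 10 spermatid markers were lower, with sums of 29748 and 28834 against 51349 to 62852 on the other 12 arrays, and of 10 elongated spermatid markers 3 were lower, with sums of 115662 and 100529 against 126529 to 198573. Of 10 spermatocyte markers 2 were higher and 2 lower. Of 6 leukocyte markers tested, 2 were higher, Cd74 (1.19, SE 0.19) and Csf1r (1.05, SE 0.14), with sums of 2960 and 2905 against 1690 to 3629 on the other 12 arrays. Of 13 interferon response and MHC class I genes tested, the list closest to the interferon-induced Psme1, 6 were higher and 0 lower, among them B2m (0.96, SE 0.15) and Igtp (1.11, SE 0.39), with sums of 11770 and 11882 against 6433 to 9221. No marker in these lists was at 0 on both arrays of a genotype. Their part in the proteasome differences was not tested.

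Whether a genotype difference depended on tissue was asked over all 42 arrays. The parental difference of domesticus depended on tissue for 3 of 67 proteasome probe sets (background 6.98%), named above for Psma3 and Psmd11, and that of castaneus for 1 (background 7.25%), Psmb10. The reciprocal difference did so for 0 in the domesticus cross (background 0.389%), with 4 at an unadjusted p under 0.05, and for 5 in the castaneus cross (background 6.51%). With the animal as a replicate block, which the labels support since the same male gave the 3 tissues, these counts were 3, 5, 2 and 8. The 5 of the castaneus cross were both Psma7 probe sets (adjusted p = 0.00113 and 0.00899 by limma's F test), Psme1 (0.0113), Psmc6 by 1417770_s_at (0.0153) and Psma1 by 1458292_at (0.0449). For Psma7 by 1423568_at the reciprocal difference was 0.00 in brain and 0.01 in liver against 1.08 in testis, and for Psme1 it was -0.07 and 0.07 against 0.97. The counts rest on single males. The domesticus count was 0 without domesticus male 1 or 2 or musculus male 1, and 1 without musculus male 2 or any single male of the domesticus cross F1. The castaneus count was 0 without musculus male 2 or castaneus male 2. The reciprocal count of the castaneus cross was 0 without musculus x castaneus male 2 or castaneus x musculus male 1, and 2 without the other male of either.

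The proteasome genes were also described as a set on each array, without a like value over all probe sets. The median deviation of the genes from their mean over genotypes lay between -0.12 and 0.14 across brain arrays, -0.16 and 0.19 across liver arrays and -0.11 and 0.27 across testis arrays, where the highest values were those of musculus x castaneus males 1 and 2 (0.14 and 0.27). The median correlation between pairs of genes across the 14 arrays of a tissue was 0.21 in brain, 0.14 in liver and 0.15 in testis, a description over arrays that share genotype, age and scaling.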

How the data were processed

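Total RNA of brain, liver and testis of 14 males was extracted with Trizol and labelled as biotinylated cRNA, per the labels' protocols, and hybridised to the GeneChip 430 2.0 array. The authors deposited 1 linear intensity for each probe set on each array. Per the submitters' processing notes the tool was MAS5. The sources used here do not give its version, its scaling target or its detection calls. MAS5 gives 1 value per probe set, and every array's trimmed mean (2% off each end) lay between 496.87 and 498.59. Gene names come from the platform annotation.

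An offset of 31, the 20th percentile of the deposited values, was added to every signal before taking log2. Probe sets under the 40th percentile of mean log2 signal were left out, which kept 27022. Linear models with a trended variance were fitted in limma 3.58.1 (R 4.3.3), within each tissue over 14 arrays and over 42 arrays for tissue differences and dependence on tissue. For genes with several probe sets, the one with the highest mean log2 signal was used, preferring those without the _x_at suffix. Levels of different probe sets were not compared, so the planned naming of the brightest and dimmest genes was not used. By the rule for named genes, these are the 4 largest tissue differences in each direction, up to 8 called genotype differences without overlap per comparison, genes whose probe sets disagree in sign or by over 1 log2 unit, and the tissue or inducible variants. Other genes were chosen as examples of their class after their values were seen. The members and gene lists were chosen with earlier results of these data known. The scripts were tested on simulated data.

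The same male gave the 3 tissues, per the labels: deviations from group means correlated above 0.1 in each of 21 combinations of genotype and tissue pair (0.102 to 0.312), and the animal correlation was 0.246. Alternatives were an offset of 100, no filter, quantile normalization, a replicate block, a linear midparent, single F1 directions and leaving out each male. Leaving out both musculus x castaneus F1 males was added after seeing the data.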

Additional observations from a re-analysis of the deposited data

Results flagged for a closer look

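These results are listed because the difference between the same 2 genotypes depended on tissue, by limma's F test over the 3 tissues with Benjamini-Hochberg adjustment. Of 67 proteasome probe sets tested, they are 3 for domesticus (background 6.98%), 1 for castaneus (7.25%) and 5 for the castaneus cross F1 (6.51%). Between domesticus and musculus, Psma3 (1448442_a_at) differed by 0.91 in testis against 0.24 in brain and 0.25 in liver (adjusted p = 0.0411). Psmd11 differed by -0.24, -0.98 and -0.04 by 1429370_a_at (adjusted p = 0.0279) and by 0.05, -0.82 and -0.03 by 1440253_at (adjusted p = 0.0376). Between castaneus and musculus, Psmb10 differed by -1.45, 0.21 and -0.84 (adjusted p = 0.0035).

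Between the reciprocal F1 of the castaneus cross, 5 probe sets differed in testis and little elsewhere. The brain, liver and testis differences were 0.10, 0.17 and 1.00 for Psma7 by 1423567_a_at (adjusted p = 0.00899) and 0.00, 0.01 and 1.08 by 1423568_at (adjusted p = 0.00113). They were -0.06, -0.07 and 0.83 for Psmc6 by 1417770_s_at (adjusted p = 0.0153), -0.07, 0.07 and 0.97 for Psme1 (adjusted p = 0.0113) and 0.16, -0.23 and 0.80 for Psma1 by 1458292_at (adjusted p = 0.0449).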

How the results depend on the processing

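Of 170 called tissue differences of proteasome probe sets, 145 kept their direction and their call under every alternative run, and 25 did not, 8 of which turned under quantile normalization. Of 74 called genotype differences, 34 kept their call under every alternative, and none turned. With 1 probe set per gene, the parental counts were 3 for domesticus and 4 for castaneus in brain, 2 for domesticus in liver, and 5 for each in testis, since fewer probe sets are counted. With no filter the domesticus count in liver was 2. Quantile normalization gave 7 for domesticus and 5 for castaneus in liver, 20 for the reciprocal F1 of the castaneus cross in testis and 8 for their dependence on tissue, and it turned brain minus liver differences: uncalled ones of Psmd7 by 1451056_at to -0.134 and of Psme3 by 1418078_at to -0.151, and called ones of Psma1 by 1458292_at to -0.143, Psme3 by 1418079_at to -0.165, Psmb4 by 1438984_x_at to 0.185 and by 1451205_at to 0.077, Psmb7 to 0.124, Psmc2 by 1435859_x_at to 0.134 and Psmd2 to 0.013. It turned the testis minus brain difference of Psmd9 by 1423387_at to 0.001. The cause was not tested. The musculus x domesticus F1 alone gave 0 probe sets off the midparent in liver by limma, with 4 at an unadjusted p under 0.05. In castaneus cross testis the musculus x castaneus F1 alone gave 33 and the other direction 1.

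With the replicate number as a block, the domesticus count in liver was 2. Across genotypes the numbers are shared in name only, with correlations above 0.1 in 12 of 21 pairs in brain, 9 in liver and 10 in testis. With the animal as a block, dependence on tissue gave 5 for castaneus, 2 for the reciprocal domesticus cross and 8 for the reciprocal castaneus cross.

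Leaving out each male in turn gave these ranges of counts: brain, domesticus 4 to 5, castaneus 3 to 5, castaneus cross midparent 1 to 2; liver, domesticus 1 to 2, castaneus 1 to 2; testis, domesticus 6 to 10, castaneus 4 to 6, castaneus cross midparent 9 to 17, its reciprocal F1 4 to 13. Dependence on tissue ranged over 0 to 3 for domesticus, 0 to 2 for castaneus, 0 to 1 for the reciprocal domesticus cross and 0 to 5 for the reciprocal castaneus cross. The uncalled brain minus liver difference of Psmd7 ranged from -0.012, without musculus x castaneus male 2, to 0.108. A lone male left in a group is assumed to vary like the other groups. Dim probe sets, such as 1432820_at of Psmd7, have signals close to the offset, which bounds their fold changes. Groups of 2 allow no check for single outlying samples.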
